A study of Homo sapiens with 24 samples.

Results

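ADAMTS genes encode secreted zinc metalloproteases, named for a disintegrin-like domain and thrombospondin type 1 repeats, that cut proteins of the extracellular matrix. The transcripts followed here were those of 10 ADAMTS genes, picked by symbol from a gene family of 19 in a table of 61551 genes: ADAMTS1, ADAMTS2, ADAMTS3, ADAMTS5, ADAMTS6, ADAMTS9, ADAMTS15, ADAMTS16, ADAMTS18 and ADAMTS19. ADAMTS15 was chosen for its large rise in edited neuroectoderm, so its difference between edited and unedited neuroectoderm, and its change between stages, are given as a description and were not tested. The 9 others are a choice among the remaining 18 genes of the family that was made with earlier results of these data known.

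ADAMTS enzymes are made as inactive precursors, are trimmed by furin-like convertases and act outside the cell or at its surface. ADAMTS1, ADAMTS5, ADAMTS9 and ADAMTS15 cleave hyalectans, the large proteoglycans such as versican and aggrecan that bind hyaluronan, and ADAMTS2 and ADAMTS3 remove the N-propeptide of fibrillar procollagens. Versican and hyaluronan fill the spaces between cells in the early embryo, and cleaved versican marks tissues that are being remodelled, among them the paths of migrating neural crest.

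The cells were H9 (WA09) human embryonic stem cells (hESCs), an established line, at 2 stages and with 4 genotypes at HAR123, a conserved enhancer in an intron of SMG6. The unedited cells (hHAR123) carried the human sequence, HAR123-KO cells lacked it, and in cHAR123 and mHAR123 cells the chimpanzee or the mouse ortholog stood in its place. Each genotype was sequenced as hESCs and as neuroectoderm, obtained by 5 days of culture in knockout serum replacement medium with Noggin and SB431542, which block BMP and activin/Nodal signalling, so all neuroectoderm libraries share that treatment. Every one of the 8 groups had 3 libraries, 24 in all. By the study's account each of the 4 genotypes, hHAR123 included, was represented by a pair of clones, without a record of which library came from which clone. The p-values thus measure the spread between libraries, which may be partly technical. Counts over exons cannot show whether the intronic enhancer was present.

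The neuroectoderm labels of the ortholog lines need a caution. Genes listed by the study for cHAR123 neuroectoderm, 117 in all, had stated levels that matched (within 0.1%) the columns labelled mHAR123 for 117 genes and the columns labelled cHAR123 for 2 genes. For the 114 genes listed under mHAR123 neuroectoderm the match was the other way, with 114 in the cHAR123 columns and 2 in the mHAR123 columns. The hESC lists and both HAR123-KO lists matched their own columns. Values below follow the column labels, and the libraries labelled cHAR123 and mHAR123 may be exchanged in neuroectoderm. No result for HAR123-KO against hHAR123 depends on this.

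Libraries held 21022748 to 35198684 counted reads, with a median of 25482501, and levels are given as CPM, a gene's count scaled to a common library total. The hESC libraries had 2328 to 2486 CPM in summed pluripotency markers (6 genes), and the neuroectoderm libraries 134 to 142 CPM in hHAR123, 124 to 129 in cHAR123, 132 to 138 in mHAR123 and 156 to 161 in HAR123-KO. In HAR123-KO neuroectoderm ZFP42 was called higher (24.1 CPM against 5.38) and no other gene of that list was called. DPPA4 was at 122 CPM against 114, and POU5F1 (10.4 CPM against 15.4), NANOG, PRDM14 and TDGF1 had lower means than in hHAR123. Summed neuroectoderm markers (7 genes) stood at 2852 to 2888 CPM in hHAR123 neuroectoderm, 2759 to 2796 in cHAR123, 2610 to 2641 in mHAR123 and 1179 to 1200 in HAR123-KO. There SOX1, SOX2 and NES were called lower, as were LHX2 and SIX3, which mark the forebrain and were low in hHAR123 already. LHX2 averaged 0.431 CPM against 1.76 in hHAR123, and SIX3 0.966 CPM against 4.96. PAX6 (228 CPM against 447) and OTX2 (257 CPM against 510) were lower and uncalled. Neural crest markers (8 genes) summed to 210 to 220 CPM in hHAR123 neuroectoderm, 377 to 386 in cHAR123, 425 to 429 in mHAR123 and 1829 to 1837 in HAR123-KO. All 8 were called higher in HAR123-KO neuroectoderm, among them SOX10 at 327 CPM against 11.9. Markers of mesoderm (5 genes, at most 3.77 CPM summed in any neuroectoderm library) and endoderm (4 genes, at most 0.331 CPM) were close to absent. Surface ectoderm markers (5 genes) summed to 4.09 to 6.23 CPM in hHAR123 neuroectoderm, 6.08 to 6.86 in cHAR123, 8.82 to 9.26 in mHAR123 and 9.56 to 9.85 in HAR123-KO, with KRT5, KRT14 and TP63 each averaging below 1 CPM. Of that list GATA3 was called higher in HAR123-KO (1.11 CPM against 0.0719 in hHAR123). GRHL3, at 8.45 CPM against 5.08, was uncalled. Mesenchyme markers (5 genes) summed to 3.54 to 4.09 CPM in hHAR123, 4.37 to 5.41 in the ortholog lines together and 14.1 to 14.7 in HAR123-KO. Most of that sum was PDGFRA, at 13.4 CPM in HAR123-KO against 3.17 in hHAR123 and the 1 gene of the list called, while TWIST1, PRRX1, DCN and LUM each averaged below 1 CPM.

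ADAMTS15, on the forward strand of chromosome 11 (GRCh38, 130448645 to 130476645), encodes a hyalectanase. In neuroectoderm it stood at 3.71, 2.93 and 3.93 CPM in the 3 hHAR123 libraries. The 3 HAR123-KO libraries had 131, 126 and 127 CPM. The cHAR123 libraries had 10.2, 11.5 and 12.2 CPM and the mHAR123 libraries 14.6, 13.7 and 16.1 CPM. The 4 genotypes formed separate ranges, hHAR123 lowest, cHAR123 and mHAR123 next and HAR123-KO far above all others. Fitted log2 fold changes against hHAR123 were 5.24 (SE 0.07) in HAR123-KO, or 37.7-fold, 1.69 (SE 0.12) in cHAR123, or 3.23-fold, and 2.11 (SE 0.11) in mHAR123, or 4.32-fold. In bulk RNA, more cells that express a gene and more RNA per cell cannot be told apart. The mean sums of the neural crest and of the surface ectoderm markers given above had the same order of genotypes. Those of the neuroectoderm markers had the reverse order. The part of any cell type in the ADAMTS15 values was not tested.

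**Figure D1:**
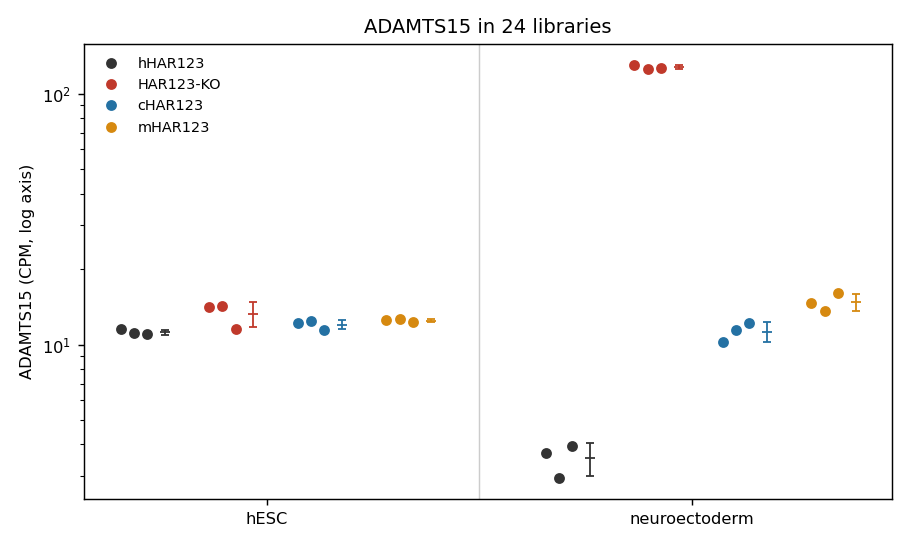
ADAMTS15 level (CPM, log axis) in each of 24 libraries, by stage and genotype, with points for libraries and bars for the mean ± SD of 3 libraries. The hESC groups lie together at 11 to 14.2 CPM, whereas neuroectoderm spreads from 2.93 CPM in hHAR123 to 131 CPM in HAR123-KO.

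In hESCs the same gene was at 11.5, 11.1 and 11 CPM in hHAR123 libraries and at 14.1, 14.2 and 11.6 CPM in HAR123-KO libraries. The cHAR123 libraries ranged from 11.4 to 12.4 CPM and the mHAR123 libraries from 12.3 to 12.6 CPM. The 4 genotypes thus differed little before differentiation. The log2 fold changes against hHAR123 were 0.22 (SE 0.08, adjusted p = 0.0392) in HAR123-KO, 0.067 (SE 0.07, adjusted p = 0.547) in cHAR123 and 0.11 (SE 0.07, adjusted p = 0.254) in mHAR123 by edgeR's quasi-likelihood test, adjusted over all genes, and none was called. Genes were called at an adjusted p under 0.01 with a log2 change over 1 in either direction. From hESCs to neuroectoderm the mean fell from 11.2 to 3.52 CPM in hHAR123 cells and went from 13.3 to 128 CPM in HAR123-KO cells. In the ortholog lines it stayed near its hESC level, at 11.3 CPM after 12 in cHAR123 and 14.8 CPM after 12.5 in mHAR123. The stage changes (log2) were −1.97, 3.08, −0.30 and 0.07 in hHAR123, HAR123-KO, cHAR123 and mHAR123 cells.

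Among the edited neuroectoderm lines, ADAMTS15 in cHAR123 and mHAR123 stood between hHAR123 and HAR123-KO. Its log2 difference from HAR123-KO was −3.52 (SE 0.05) in cHAR123 and −3.10 (SE 0.05) in mHAR123, and between the libraries labelled mHAR123 and cHAR123 the log2 difference was 0.42 (SE 0.08), with every mHAR123 library above every cHAR123 library. These differences are given without a test because the edited neuroectoderm libraries are those that chose the gene.

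The other proteoglycanases among the members are ADAMTS1, ADAMTS5 and ADAMTS9. ADAMTS5, an aggrecanase of cartilage that also cuts versican, was low in neuroectoderm, at 0.428, 0.579 and 0.854 CPM in hHAR123 libraries and 1.85, 1.37 and 2.04 CPM in HAR123-KO libraries. These ranges did not overlap, and the gene was called higher in HAR123-KO (log2 fold change 1.53, SE 0.28, adjusted p = 4.93e-06), on 9 to 20 reads per hHAR123 library. In the cHAR123 libraries ADAMTS5 was at 1.72, 0.761 and 1.17 CPM and in mHAR123 libraries at 0.924, 0.704 and 1.04 CPM, overlapping hHAR123, with log2 fold changes of 0.98 (SE 0.32, adjusted p = 0.0268) and 0.54 (SE 0.32, adjusted p = 0.243). Without cHAR123 replicate 2 the former became 1.23 and was called. ADAMTS1, which cuts versican and aggrecan and lies 72512 bases from ADAMTS5 on chromosome 21, was at 12.9 to 14.2 CPM in hHAR123 neuroectoderm and 20.9 to 22.7 CPM in HAR123-KO. Its log2 fold change of 0.77 (SE 0.07, adjusted p = 3.78e-13) passed the p threshold and not that on size. The ortholog lines overlapped hHAR123.

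ADAMTS9, a widely expressed versican protease also needed for cilium formation, was the most abundant member per length in hHAR123 neuroectoderm. It was at 112, 119 and 117 CPM in hHAR123 neuroectoderm and 58.2, 58.6 and 58.2 CPM in HAR123-KO neuroectoderm. The cHAR123 libraries (111 to 113 CPM) overlapped hHAR123, and the mHAR123 libraries (101.4 to 106.4 CPM) lay just below. The HAR123-KO libraries thus lay below every other neuroectoderm library, the opposite of their place for ADAMTS15, with a log2 fold change of −0.94 (SE 0.04, adjusted p = 2.89e-26), short of the size required for a call. Against HAR123-KO the log2 differences of ADAMTS9 were 0.93 (SE 0.03) in cHAR123 and 0.85 (SE 0.04) in mHAR123, also uncalled. ADAMTS9-AS2, an antisense transcript whose span shares 3092 bases with that of ADAMTS9, was at 10.7 CPM in hHAR123 neuroectoderm and 6.56 CPM in HAR123-KO. Whether the counting used strand is not given in the sources used here, so reads in shared bases cannot be assigned.

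**Figure D2:**
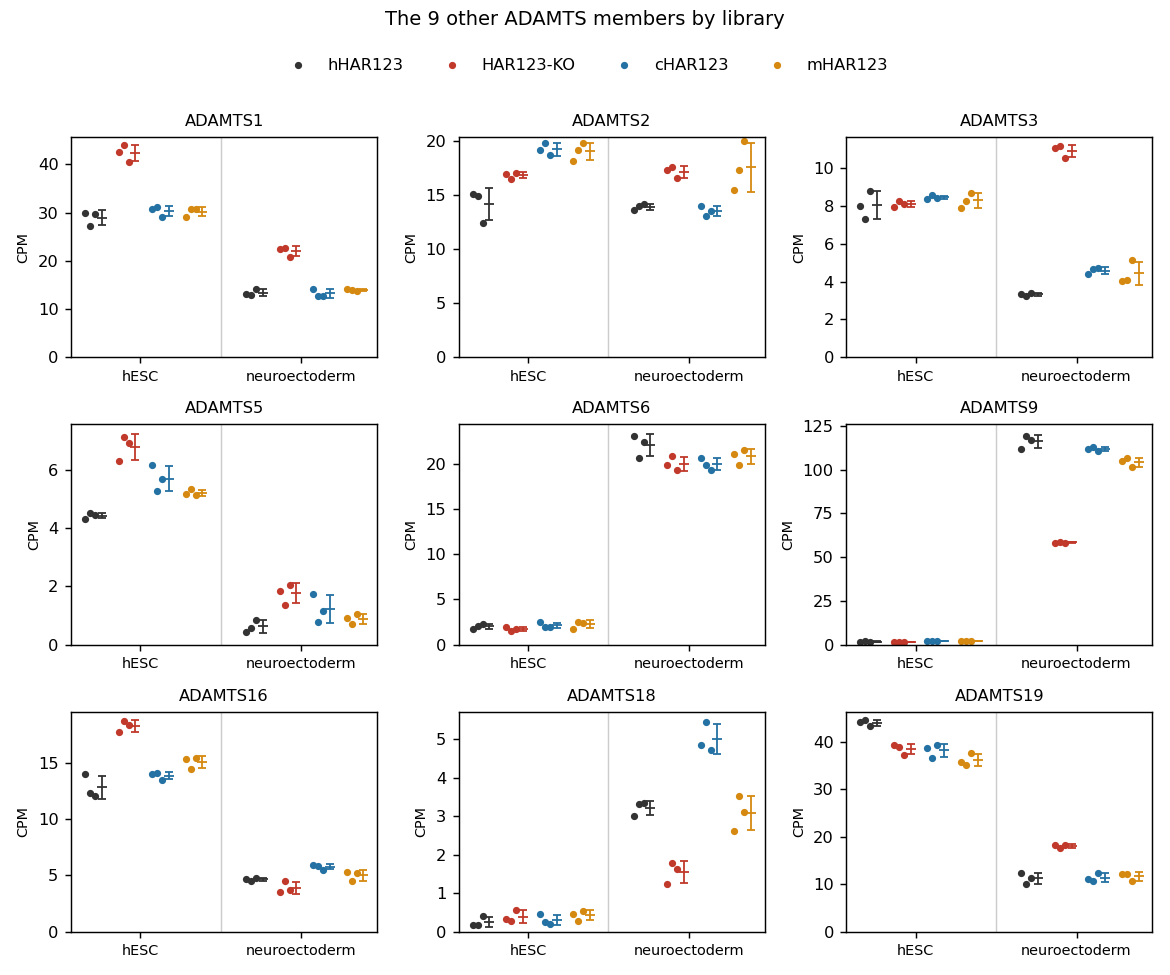
CPM of the 9 other members in each library, by stage (left hESC, right neuroectoderm) and genotype, with bars for the mean ± SD of 3 libraries and a linear axis from 0 in every panel. ADAMTS1, ADAMTS3, ADAMTS9, ADAMTS18 and ADAMTS19 show HAR123-KO neuroectoderm apart from the other genotypes, at 22, 10.9, 58.3, 1.56 and 18 CPM on average.

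The procollagen N-proteinases among the members are ADAMTS2 and ADAMTS3. ADAMTS3 trims procollagen II, activates VEGF-C together with CCBE1 and cleaves reelin. Its level in neuroectoderm was 3.33, 3.22 and 3.42 CPM in hHAR123 libraries against 11.1, 11.2 and 10.5 CPM in HAR123-KO libraries. The cHAR123 libraries had 4.40, 4.65 and 4.71 CPM and the mHAR123 libraries 4.04, 4.10 and 5.15 CPM, between the former groups and without overlap with either. ADAMTS3 was called higher in HAR123-KO (log2 fold change 1.77, SE 0.11, adjusted p = 3.19e-19) and lower in cHAR123 and mHAR123 than in HAR123-KO (log2 fold changes −1.26, SE 0.10, and −1.29, SE 0.11). Against hHAR123 the ortholog lines gave 0.48 (SE 0.13, adjusted p = 0.0102) and 0.45 (SE 0.14, adjusted p = 0.0181), neither called. In hESCs all 4 genotypes overlapped, from 7.32 to 8.81 CPM. ADAMTS2, the main procollagen I N-proteinase, ranged from 13.1 to 20 CPM over the neuroectoderm libraries, and its log2 fold changes against hHAR123 of 0.35 in HAR123-KO (adjusted p = 6.58e-05) and 0.38 in mHAR123 (adjusted p = 0.000706) were uncalled.

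ADAMTS6, ADAMTS16, ADAMTS18 and ADAMTS19 have fewer known substrates. ADAMTS18, linked to eye development, was at 3.0, 3.31 and 3.33 CPM in hHAR123 neuroectoderm, 1.25, 1.79 and 1.63 CPM in HAR123-KO, 4.84, 5.45 and 4.71 CPM in cHAR123 and 2.62, 3.52 and 3.12 CPM in mHAR123. HAR123-KO was lowest and cHAR123 highest, both apart from hHAR123, whereas mHAR123 overlapped hHAR123. The log2 fold change in HAR123-KO was −0.99 (SE 0.18, adjusted p = 9.26e-06), just short of a call, and it was called with the size factors of DESeq2 (−1.0) and without hHAR123 replicate 1 (−1.05) or HAR123-KO replicate 2 (−1.10) or 3 (−1.02). In cHAR123 it was 0.65 against hHAR123 (SE 0.13, adjusted p = 0.000462), uncalled, and 1.67 against HAR123-KO (SE 0.16, adjusted p = 1.29e-13), called. Here the libraries labelled mHAR123 and cHAR123 differed by −0.68 (SE 0.14, adjusted p = 0.000562), also uncalled.

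ADAMTS19, known from heart valve disease, had 10.1 to 12.3 CPM in hHAR123 neuroectoderm and 17.6 to 18.3 CPM in HAR123-KO, which is a difference of 0.74 on the log2 scale (SE 0.08, adjusted p = 2.14e-11) that was uncalled. The ortholog lines overlapped hHAR123. ADAMTS6, which regulates fibrillin microfibrils and heart development, ranged only from 19.3 to 23.1 CPM over all 12 neuroectoderm libraries, and its log2 fold changes lay between −0.13 and −0.040 with adjusted p from 0.202 to 0.727. ADAMTS16, a close relative of ADAMTS18, was at 3.53 to 4.54 CPM in HAR123-KO and 4.5 to 4.78 CPM in hHAR123, overlapping (log2 fold change −0.20, SE 0.13, adjusted p = 0.216). ADAMTS16-DT, a divergent transcript that starts 176 bases from ADAMTS16, was at 1.91 to 3.10 CPM in HAR123-KO and 4.92 to 5.47 CPM in hHAR123. It was called lower at a log2 fold change of −1.0 (SE 0.15, adjusted p = 1.34e-07), and the call was lost without hHAR123 replicate 1 (−0.986) or 3 (−0.996) or HAR123-KO replicate 2 (−0.84).

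ADAMTS3 and ADAMTS6 are the members with a promoter sequence at hand that differ most plainly in these comparisons, ADAMTS3 called higher in HAR123-KO neuroectoderm and ADAMTS6 with all genotypes close together, so their promoters are shown. Each runs from 250 bases before to 50 bases after the RefSeq start (GRCh38.p14, minus strand, 5′ to 3′), with the dinucleotide CG, the letter pair of CpG islands, in capitals.
ADAMTS3, chr4:72569172-72569471: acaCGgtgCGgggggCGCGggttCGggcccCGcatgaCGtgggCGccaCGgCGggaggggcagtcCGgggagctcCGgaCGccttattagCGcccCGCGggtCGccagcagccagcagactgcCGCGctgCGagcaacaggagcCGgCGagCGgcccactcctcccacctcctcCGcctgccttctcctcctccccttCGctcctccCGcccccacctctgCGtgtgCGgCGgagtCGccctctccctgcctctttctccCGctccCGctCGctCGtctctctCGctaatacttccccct
ADAMTS6, chr5:65481871-65482170: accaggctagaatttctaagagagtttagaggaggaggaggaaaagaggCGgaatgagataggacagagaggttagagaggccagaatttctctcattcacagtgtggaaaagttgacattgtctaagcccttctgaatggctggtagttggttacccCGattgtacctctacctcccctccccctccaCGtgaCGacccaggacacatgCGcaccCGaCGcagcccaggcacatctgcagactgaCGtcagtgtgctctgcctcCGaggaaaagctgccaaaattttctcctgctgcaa
The ADAMTS3 window held 35 CG, more than 85.9% of 34943 promoters of that length, and 72.7% G or C. The ADAMTS6 window held 9 CG, more than 41.7% of promoters, and 52% G or C. Across all promoters the median was 14 CG and 58.7% G or C, and 96% held at least 1 CG. The windows of ADAMTS2, ADAMTS18 and ADAMTS19 held 47, 30 and 25 CG. No binding or methylation was measured here. ADAMTS1, ADAMTS5, ADAMTS9, ADAMTS15 and ADAMTS16 are named only.

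Counted together, 2 of the 9 members other than ADAMTS15 were called higher in HAR123-KO neuroectoderm (ADAMTS3 and ADAMTS5), where 4.92% of all 21362 genes tested were, and 9.45% were called in either direction. None was called lower by edgeR or DESeq2, against 4.52% of all genes. Of the 9, 7 had an unadjusted p under 0.05, as had 12332 of the 21362 genes tested. The median log2 fold change of the 9 was 0.35, beside 0.00092 over all genes tested. In cHAR123 neuroectoderm 0 of 9 were called by either tool, where 0.522% of genes were called higher and 0.456% lower, and the median was 0.037. There 4 of the 9 had an unadjusted p under 0.05, beside 6160 of 21275 genes. In mHAR123 neuroectoderm 0 of 9 were called by either tool, where 0.603% were called higher and 0.429% lower, and the median was 0.10. There 3 of the 9 had an unadjusted p under 0.05, beside 7171 of 21220 genes. These 3 comparisons share the hHAR123 libraries. Against HAR123-KO, cHAR123 had 1 of the 9 higher (ADAMTS18) and 1 lower (ADAMTS3), where 3.7% and 3.91% of genes were called higher and lower, or 7.61% in either direction. Against the same libraries mHAR123 had 1 of the 9 lower (ADAMTS3), where 3.78% of genes were, and none higher by edgeR (3.55% of genes, 7.33% in either direction). In that comparison 7 of the 9 had an unadjusted p under 0.05, beside 10828 of 21138 genes. DESeq2 called ADAMTS18 higher there (1.0), and so did edgeR without HAR123-KO replicate 2 (1.10) or 3 (1.03) or mHAR123 replicate 1 (1.11), while ADAMTS5, at −0.97, was called lower without HAR123-KO replicate 2 (−1.12) or mHAR123 replicate 3 (−1.09). Between mHAR123 and cHAR123 0 of 9 were called by edgeR or DESeq2, where 0.104% of genes were called higher and 0.156% lower. Of the 9, 3 had an unadjusted p under 0.05, beside 4042 of 21108 genes.

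**Figure D3:**
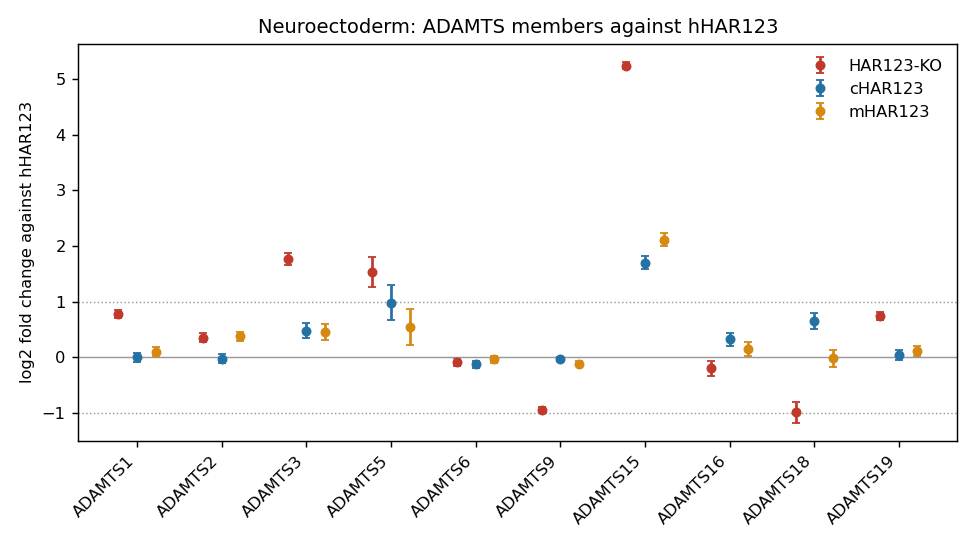
Log2 fold change against hHAR123 neuroectoderm for each member (points, bars ± SE) in HAR123-KO, cHAR123 and mHAR123, with dotted lines at the log2 change of 1 required for a call. ADAMTS15 reaches 5.24 in HAR123-KO, ADAMTS3 and ADAMTS5 reach 1.77 and 1.53, and ADAMTS9 and ADAMTS18 lie just above the lower line.

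In hESCs no member was called in any edited genotype by edgeR or DESeq2. The members with an unadjusted p under 0.05 numbered 6 of 10 in HAR123-KO, 3 of the 9 tested in cHAR123 and 3 of 10 in mHAR123. Over all genes tested, 6191 of 20832, 7719 of 20935 and 8131 of 21139 had such a p in these genotypes. Of all genes, 0.96%, 0.626% and 1.03% were called higher and 0.221%, 0.225% and 0.199% lower, or 1.18%, 0.85% and 1.23% in either direction. The difference of largest size with an adjusted p under 0.01 was that of ADAMTS5 in HAR123-KO, at 6.3 to 7.14 CPM against 4.32 to 4.52 CPM (log2 fold change 0.60, SE 0.10, adjusted p = 1.76e-05). ADAMTS1 was at 40.5 to 44.0 CPM in HAR123-KO hESCs against 27.1 to 29.9 CPM in hHAR123 (0.53, SE 0.05, adjusted p = 1.20e-11), and ADAMTS16 at 17.7 to 18.7 CPM against 12.1 to 14 CPM (0.50, SE 0.07, adjusted p = 2.84e-07). ADAMTS2 was at 18.7 to 19.9 CPM in cHAR123 and 18.2 to 19.8 CPM in mHAR123 against 12.5 to 15.1 CPM in hHAR123 (0.41 and 0.39). ADAMTS19 lay lower in every edited hESC group, at 35.2 to 39.3 CPM over their 9 libraries against 43.4 to 44.6 CPM, with log2 fold changes of −0.22, −0.23 and −0.32 in HAR123-KO, cHAR123 and mHAR123 and adjusted p of 0.000181, 0.000110 and 7.41e-08.

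Differentiation itself moved most of the family. In hHAR123 cells 3 of the 9 members rose (ADAMTS6, ADAMTS9 and ADAMTS18) and 5 fell (ADAMTS1, ADAMTS3, ADAMTS5, ADAMTS16 and ADAMTS19), where 24.6% and 21.2% of all genes were called higher and lower in neuroectoderm, 45.9% in all. The 3 that rose were called in all 4 genotypes, as were ADAMTS1, ADAMTS5, ADAMTS16 and ADAMTS19 among those that fell. ADAMTS9 went from 1.57 to 116 CPM in hHAR123 (log2 fold change 5.92, SE 0.08), ADAMTS6 from 2.0 to 22.1 CPM (3.16, SE 0.10) and ADAMTS18 from 0.256 to 3.21 CPM (3.32, SE 0.26). ADAMTS5 fell from 4.43 to 0.620 CPM (−3.11, SE 0.20), ADAMTS19 from 44.0 to 11.2 CPM (−2.27, SE 0.06), ADAMTS16 from 12.8 to 4.67 CPM (−1.75, SE 0.10) and ADAMTS1 from 28.9 to 13.4 CPM (−1.40, SE 0.07). ADAMTS2 was called in no genotype, with log2 changes from −0.71 to −0.17. Of the 9, HAR123-KO had 3 called higher and 4 lower, where 22% and 19.1% of genes were (41.1% in all). Both ortholog lines had 3 higher and 5 lower, where 21.9% and 20.8% of genes were in cHAR123 (42.7% in all) and 21.3% and 20.7% in mHAR123 (41.9% in all).

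ADAMTS3 was called lower with stage in hHAR123 (−1.57, SE 0.12), cHAR123 (−1.09, SE 0.10) and mHAR123 (−1.08, SE 0.11) and not in HAR123-KO, where it was at 8.09 CPM in hESCs and 10.9 CPM in neuroectoderm (0.23, SE 0.09, adjusted p = 0.0145). The HAR123-KO difference in neuroectoderm minus that in hESCs, tested as an interaction term in a fit of those 12 libraries, was 1.77 for ADAMTS3 (SE 0.14, adjusted p = 3.11e-15) and −1.62 for ADAMTS18 (SE 0.45, adjusted p = 0.00302). These 2 were the members called, 1 in each direction, where 3.84% and 4.03% of all genes were, 7.87% in all. The ADAMTS18 call rests on 6 to 19 reads per hESC library, and was lost with DESeq2 (−1.60, adjusted p = 0.0125) and without hHAR123 hESC replicate 1 (−1.45) or 2 (−1.42) or HAR123-KO hESC replicate 3 (−1.19). Values of 0.95 for ADAMTS19, 0.93 for ADAMTS5, −0.82 for ADAMTS9 and −0.70 for ADAMTS16 had adjusted p under 0.01 and were below the size required. Single libraries decided all of these but ADAMTS16, which stayed between −0.813 and −0.629 whichever library was left out. ADAMTS19 was called without hHAR123 neuroectoderm replicate 1 (1.01), and ADAMTS9 without hHAR123 hESC replicate 2 (−1.01). ADAMTS5 was called without hHAR123 neuroectoderm replicate 3 (1.23) or HAR123-KO neuroectoderm replicate 2 (1.08). For ADAMTS15 the same quantity was 5.02 (SE 0.11), untested.

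Compared per length of exon (RPKM, which is CPM divided by the exon length in kilobases), ADAMTS15 ranked in the middle of the 10 members in hESCs and at their top in HAR123-KO neuroectoderm. Ranks below are among the 10 members. Outside them, ADAMTS7 (12.3 RPKM) and ADAMTS8 (10.0 RPKM) exceeded every member in hHAR123 hESCs. In hESCs ADAMTS19 was the most abundant of the 10 members in all 4 genotypes, at 6.70 to 8.16 RPKM in the mean, followed by ADAMTS1 at 3.96 to 5.80 RPKM, and ADAMTS15 took rank 4 or 5 at 1.87 to 2.22 RPKM. In hHAR123 neuroectoderm ADAMTS9 led the members at 10.9 ± 0.360 RPKM (SD, n = 3), below ADAMTS7 (19.2 RPKM) and ADAMTS20 (12.5 RPKM) outside them. ADAMTS15 took rank 7 at 0.587 ± 0.0870 RPKM, overlapping ADAMTS18 at 0.487 RPKM. In HAR123-KO neuroectoderm ADAMTS15 led at 21.3 ± 0.411 RPKM, with ADAMTS9 next among the members at 5.46 ± 0.0204 RPKM. Outside them, ADAMTS7 was at 15.7 RPKM and ADAMTS20 at 13.6 RPKM there. In cHAR123 neuroectoderm ADAMTS15 took rank 4 at 1.88 RPKM, overlapping ADAMTS19 and ADAMTS1, and in mHAR123 rank 2 at 2.46 RPKM, overlapping ADAMTS6. Of the summed RPKM of all 19 ADAMTS genes, ADAMTS15 made up 0.919% in hHAR123 neuroectoderm, 25.1% in HAR123-KO, 2.63% in cHAR123 and 3.54% in mHAR123. ADAMTS9 made up 17% in hHAR123 and 6.44% in HAR123-KO. The sum itself was 62.9 to 64.5 RPKM in hHAR123 libraries and 83.4 to 86.6 RPKM in HAR123-KO libraries.

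The 9 ADAMTS genes outside the chosen members included 3 that were called higher in HAR123-KO neuroectoderm, of 8 tested, where 4.92% of all genes were. None was called lower by edgeR or DESeq2, against 4.52% of all genes. Of the 8, 7 had an unadjusted p under 0.05, beside 12332 of 21362 genes. ADAMTS4, a hyalectanase close to ADAMTS5, was at 8.51, 11.3 and 10.2 CPM in hHAR123 and 46.7, 43.0 and 44.2 CPM in HAR123-KO (log2 fold change 2.20, SE 0.07, adjusted p = 1.75e-31). ADAMTS14, a procollagen N-proteinase related to ADAMTS2 and ADAMTS3, was at 0.904, 0.455 and 0.939 CPM against 3.79, 3.50 and 3.88 CPM (2.34, SE 0.22). It was also called higher in cHAR123 (1.20, SE 0.26) and mHAR123 (1.34, SE 0.26), the former call being lost without hHAR123 replicate 2 (0.93) and absent with DESeq2, which gave no adjusted p for it in cHAR123. ADAMTS17 rose from a mean of 2.92 to 7.16 CPM in HAR123-KO (1.35, SE 0.13). Leaving out ADAMTS15, which was not tested there, the family genes called higher were the hyalectanases ADAMTS4 and ADAMTS5, the procollagen N-proteinases ADAMTS3 and ADAMTS14, and ADAMTS17. Others of these classes were uncalled, among them ADAMTS1 (0.77), ADAMTS9 (−0.94) and ADAMTS2 (0.35). ADAMTS18 (−0.99) and ADAMTS12 (30.7 CPM in hHAR123, 16.7 in HAR123-KO, −0.83) had lower levels, as had ADAMTS9, and were uncalled. ADAMTS-like proteins share the noncatalytic domains and lack the protease. Of 7 tested, ADAMTSL1 (2.40 to 5.35 CPM in the mean, 1.19, SE 0.15) was called higher, and PAPLN, or papilin (332 to 144 CPM, −1.15, SE 0.03) and ADAMTSL5 (1.52 to 0.569 CPM, −1.36, SE 0.30) lower, beside the same shares of all genes. In cHAR123 and mHAR123 0 of 6 were called by either tool, where 0.978% and 1.03% of genes were called in either direction. There 3 and 1 of the 6 had an unadjusted p under 0.05, beside 6160 of 21275 and 7171 of 21220 genes.

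ADAMTS8, another hyalectanase, is the divergent neighbour of ADAMTS15, 20035 bases away. It fell from 41.6 CPM in hHAR123 hESCs to 0.265 CPM in hHAR123 neuroectoderm (log2 fold change −7.57, SE 0.14) and was at 0.253, 0.171 and 0.174 CPM in HAR123-KO, cHAR123 and mHAR123 neuroectoderm. With 2 to 10 reads per neuroectoderm library it was too low to enter the genotype tests there. In hESCs its log2 fold changes against hHAR123 were −0.24, −0.20 and −0.27 in HAR123-KO, cHAR123 and mHAR123 (adjusted p of 7.76e-05, 0.000790 and 3.18e-06), all uncalled. Of 24 other genes within 500 kb of ADAMTS15, 8 reached 1 CPM in a group. Of these, 7 were tested in neuroectoderm and none was called in any edited genotype by edgeR or DESeq2. Of all genes, 9.45%, 0.978% and 1.03% were called in HAR123-KO, cHAR123 and mHAR123, so 0 of 7 says little about the locus. In these genotypes 3, 3 and 2 of the 7 had an unadjusted p under 0.05, beside 12332 of 21362, 6160 of 21275 and 7171 of 21220 genes. APLP2, a relative of the amyloid precursor protein and the 1 with an adjusted p under 0.01, had log2 fold changes of 0.25, 0.13 and 0.21 in HAR123-KO, cHAR123 and mHAR123.

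Substrates and partners of these enzymes were taken from short lists of known members. Of 10 hyalectan and hyaluronan genes tested in HAR123-KO neuroectoderm, 4 were called higher and 1 lower, where 4.92% and 4.52% of all genes were. HAS2, the main hyaluronan synthase of the embryo, was at 3.95, 2.77 and 3.07 CPM in hHAR123 and 35.5, 39.0 and 38.5 CPM in HAR123-KO (log2 fold change 3.59, SE 0.09), and was called in cHAR123 (1.14, SE 0.13) and mHAR123 (1.40, SE 0.12) as well. HAPLN1, the link protein that ties hyalectans to hyaluronan, rose from 0.660 to 4.77 CPM in HAR123-KO (2.90, SE 0.20), 1.78 CPM in cHAR123 (1.45, SE 0.27) and 2.16 CPM in mHAR123 (1.75, SE 0.26). DESeq2 gave HAPLN1 no adjusted p in cHAR123 and so did not call it there. VCAN, or versican, the proteoglycan that ADAMTS1, ADAMTS5, ADAMTS9 and ADAMTS15 share as a substrate, was at 273, 264 and 263 CPM in hHAR123 and 699, 725 and 706 CPM in HAR123-KO (1.46, SE 0.03) and was not called in the ortholog lines, at 360 and 294 CPM in the mean. HAPLN2, a link protein of the mature brain, was called lower (1.60 to 0.724 CPM, −1.08, SE 0.26), and CD44, a hyaluronan receptor named here for completeness after its value was seen, higher (1.05 to 2.02 CPM, 1.01, SE 0.23). With DESeq2 neither was called, at adjusted p of 0.0178 and 0.0127, and single libraries decided both, HAPLN2 without hHAR123 replicate 1 (−0.999) and CD44 without hHAR123 replicate 2 (0.89) or 3 (0.88) or HAR123-KO replicate 3 (0.99) being uncalled.

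**Figure D4:**
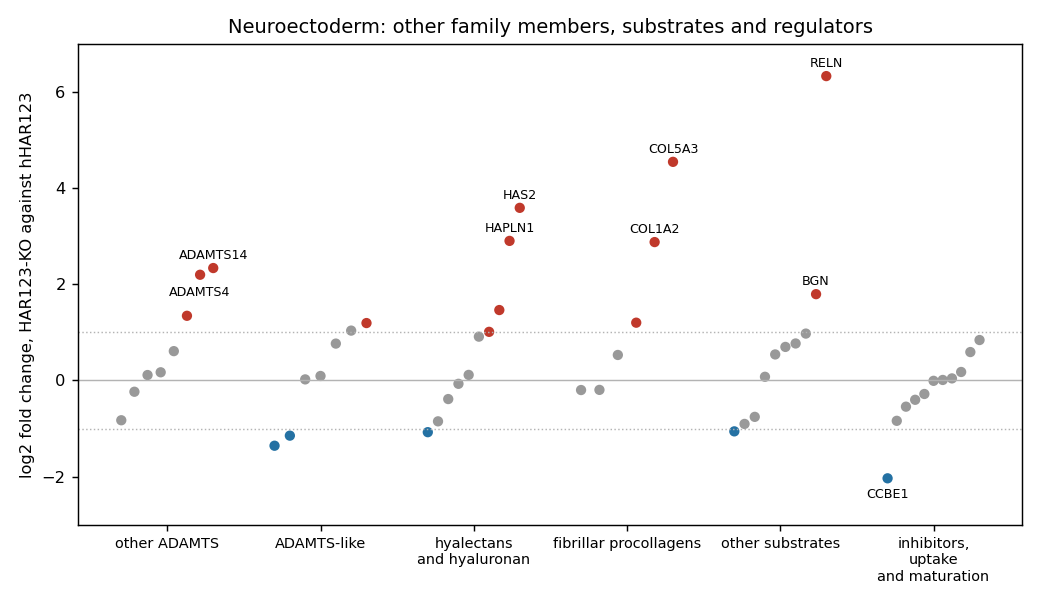
Log2 fold change of HAR123-KO against hHAR123 neuroectoderm for the tested genes of 6 lists, with red and blue points for genes called higher and lower, grey points for genes not called, and names for called genes beyond 1.7. RELN, COL5A3 and HAS2 lie highest, at 6.33, 4.55 and 3.59, and CCBE1 lowest, at −2.04.

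All 6 fibrillar procollagen genes tested had an adjusted p under 0.01 in HAR123-KO neuroectoderm, and 3 were called, all higher. COL5A3 was at 3.0, 3.76 and 3.42 CPM in hHAR123 and 78.0, 78.1 and 75.1 CPM in HAR123-KO (log2 fold change 4.55, SE 0.07), COL1A2 rose from 81.9 to 581 CPM (2.88, SE 0.03) and COL5A1 from 75.3 to 167 CPM (1.20, SE 0.04). COL5A3 was also called higher in cHAR123 (1.31, SE 0.12) and mHAR123 (1.93, SE 0.11), and COL1A2 in mHAR123 (1.05, SE 0.04). Among 10 other substrates tested, RELN, or reelin, the glycoprotein that guides neuronal layering and a substrate of ADAMTS3, went from 3.23, 2.48 and 1.96 CPM to 193, 199 and 200 CPM (6.33, SE 0.07), with 15 CPM in cHAR123 (2.58, SE 0.12) and 12.9 CPM in mHAR123 (2.38, SE 0.12). BGN, or biglycan, was called higher (1.80, SE 0.17) and THBS1, or thrombospondin 1, lower (−1.06, SE 0.10). Of 11 inhibitors, uptake receptors and maturation factors tested, CCBE1, the partner of ADAMTS3 in VEGF-C activation, was called lower, from 31.3, 27.8 and 29.5 CPM to 7.92, 7.24 and 5.68 CPM (−2.04, SE 0.08). None was called higher by edgeR or DESeq2, and 8 of the 11 had an unadjusted p under 0.05, beside 12332 of 21362 genes. TIMP3, the main tissue inhibitor of ADAMTS enzymes, was at 35.3 CPM in hHAR123 and 19 CPM in HAR123-KO (−0.84, SE 0.06), uncalled. In cHAR123 and mHAR123 0 of 11 were called by either tool, where 0.978% and 1.03% of genes were called in either direction. In each, 6 of the 11 had an unadjusted p under 0.05, beside 6160 of 21275 and 7171 of 21220 genes. Median log2 fold changes in HAR123-KO neuroectoderm were 0.39 for the other ADAMTS genes, 0.093 for ADAMTS-like genes, 0.51 for hyalectans and hyaluronan, 0.87 for procollagens, 0.62 for other substrates and −0.0078 for inhibitors and maturation factors, beside 0.00092 for all genes tested. The lists were read against 4.92% of genes called higher and 4.52% called lower, and in hESCs they held no call in HAR123-KO or mHAR123 by either tool and 1 by edgeR in cHAR123 (HAPLN2, 1.72, not called by DESeq2 and lost with 5 of 6 single libraries left out, at 1.39 to 1.82).

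Across the 24 libraries, 15965 genes with a mean of at least 1 CPM were ranked by Pearson's correlation of log2 CPM with ADAMTS15. The 5 most alike were HAS2 (r = 0.989), PKDCC (0.969), a secreted protein kinase, PCDH10 (0.966), a protocadherin, PYGL (0.963), glycogen phosphorylase, and CD74 (0.963), the invariant chain of MHC class II. The points share stages and genotypes, so that the correlations describe a shared pattern over groups. Without the 3 HAR123-KO neuroectoderm libraries, 21 libraries gave 0.947 for HAS2, 0.874 for PKDCC, 0.835 for PCDH10, 0.860 for PYGL and 0.810 for CD74. Each of the 5 was higher in HAR123-KO neuroectoderm than in any other library. PKDCC, for example, had 216 to 234 CPM against at most 39.8 CPM elsewhere, and CD74 99.5 to 105 CPM against at most 46.8 CPM. They were picked for following ADAMTS15, which was chosen for its rise in edited neuroectoderm, so these high levels follow from the choice. The correlations over 21 libraries reuse libraries that made both choices, so they are no separate support for a shared pattern.

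**Figure D5:**
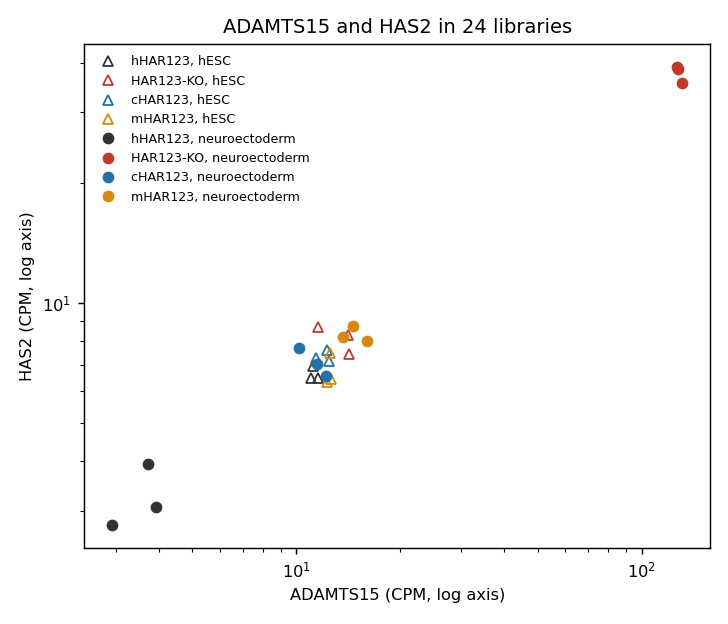
ADAMTS15 against HAS2 (CPM, both axes log) in 24 libraries, with open triangles for hESCs and filled circles for neuroectoderm, coloured by genotype. The 3 HAR123-KO neuroectoderm libraries lie at the upper right (126 to 131 and 35.5 to 39.0 CPM), hHAR123 neuroectoderm at the lower left, and the ortholog lines in neuroectoderm among the hESC libraries.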

How the data were processed

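Total RNA of 24 H9 libraries was depleted of rRNA, made into directional libraries and sequenced in pairs. The table deposited holds unnormalized read counts for each gene, which the authors obtained by aligning reads to GRCh38 with STAR 2.5.2b and counting exons with featureCounts, and the strand setting is not given in the sources used here. Of the rows, 3 broken ones were left out, and 61551 genes were kept. Groups follow the sample labels. Each pair of groups was fitted alone with edgeR 4.0.16 in R 4.3.3 (filterByExpr, TMM scaling, quasi-likelihood F test, Benjamini-Hochberg adjustment over all genes tested), with calls at an adjusted p under 0.01 and a log2 change over 1, and SEs from the fold change and its F. The fits were tested on simulated data. CPM used library totals. Members and lists were chosen with earlier results of these data known. Named beyond the members were called genes of each list with a mean of at least 1 CPM, up to 4 by size of change in HAR123-KO neuroectoderm, the 5 genes most correlated with ADAMTS15, expressed neighbours within 500 kb and antisense partners. ADAMTS12, TIMP3, CD44 and, in hESCs, HAPLN2 fall outside this rule and were named after their values were seen. Alternatives were DESeq2 1.42.0, its size factors, no filter, 1 fit for all libraries of a stage, a replicate block, a threshold of 0.05 and each library left out. Promoters came from RefSeq. Python 3.11.15 and pandas 2.3.3 made the tables.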

Additional observations from a re-analysis of the deposited data

Results flagged for a closer look

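A HAR123-KO difference from hHAR123 that depended on the stage was called for 2 members other than ADAMTS15, by an interaction term in edgeR over 12 libraries. ADAMTS5, ADAMTS9, ADAMTS16 and ADAMTS19 also had an adjusted p under 0.01 for that term, with values below the size required for a call. For ADAMTS3 the difference in neuroectoderm exceeded that in hESCs by 1.77 on the log2 scale (SE 0.14, adjusted p = 3.11e-15), being 1.77 in neuroectoderm and −0.012 in hESCs. For ADAMTS18 the same quantity was −1.62 (SE 0.45, adjusted p = 0.00302), being −0.99 in neuroectoderm and 0.62 in hESCs, where its 6 libraries of these genotypes held 6 to 19 reads each. The ADAMTS18 call was lost with DESeq2 (adjusted p = 0.0125) and without hHAR123 hESC replicate 1 or 2 or HAR123-KO hESC replicate 3, where the adjusted p was 0.0123, 0.0149 and 0.0769.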

How the results depend on the processing

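No result reversed. Leaving out single libraries gave 5.11 to 5.32 for the ADAMTS15 log2 difference of HAR123-KO from hHAR123 neuroectoderm, 1.58 to 1.79 for cHAR123 and 2.0 to 2.20 for mHAR123. Members called lower in HAR123-KO neuroectoderm went from 0 to 1 with DESeq2 size factors and were 0 to 1 without single libraries (ADAMTS18 each time). Without single libraries members other than ADAMTS15 called higher in cHAR123 neuroectoderm were 0 to 1 (ADAMTS5), members higher in mHAR123 than HAR123-KO 0 to 1 (1 with DESeq2), and those whose HAR123-KO difference was higher or lower in neuroectoderm than in hESCs 1 to 2 and 0 to 1 (0 lower with DESeq2). DESeq2 called fewer genes over the whole table: 71 higher and 44 lower in cHAR123 neuroectoderm (edgeR 111 and 97), 42 lower in mHAR123 neuroectoderm (91), 7 and 7 between the ortholog lines (22 and 33), and in hESCs 125 and 27 in HAR123-KO (200 and 46), 52 and 26 in cHAR123 (131 and 47) and 97 and 24 in mHAR123 (217 and 42). An adjusted p of 0.05 gave 35 genes higher in mHAR123 than cHAR123 neuroectoderm and 208 higher in cHAR123 hESCs, and no filter gave 64 lower in mHAR123 hESCs. The cause was not tested. Replicate numbers did not pair the samples (correlations of deviations −0.0234 to 0.0369), and with the replicate block the 28 counts of members were equal, the 28 counts of all genes stayed within 1.5 times (22 and 33 became 19 and 28 between the ortholog lines), and 230 fold changes kept their direction and side of the threshold. TMM scaling moved member levels by −10% to 12.3%, beyond 1 SD for 54 of 80 group levels. ADAMTS5, ADAMTS14 and ADAMTS18 rest on few reads, which limits their precision.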
